A study of Mus musculus with 2 samples.

Results

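The genes described here are 2 synucleins, Sncb and Sncg, and 4 genes whose human counterparts carry mutations in inherited Parkinson disease, Lrrk2, Park7, Pink1 and Vps35. They were taken by gene symbol, which gave 6 of the 55536 annotated genes and 29 of the 141864 annotated transcripts. They were measured by sequencing of total RNA from the left side of the cerebral cortex, in 2 female mice at the adult age of 8 to 10 months. Both mice were B6CASTF1/J, a first-generation cross between C57BL/6J and CAST/EiJ inbred mice, with no mutation or treatment named in the labels. Replicate 1 is animal 1, replicate 2 is animal 5, and these libraries form a single group. The labels give both animals the same donor entry, so their separateness rests on the animal numbers, and every difference between the libraries is a difference between 2 single preparations with no further replicate.

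Synucleins are small, soluble proteins of nerve terminals that bind lipid membranes and synaptic vesicles. Sncb encodes beta-synuclein, found widely at forebrain synapses, and Sncg encodes gamma-synuclein, known from sensory and motor neurons and from a subclass of cortical interneurons that make cholecystokinin. The other genes act in membrane traffic and in the care of mitochondria. Lrrk2 is a large enzyme with a kinase and a GTPase domain that phosphorylates Rab GTPases on membranes. Vps35 is the scaffold subunit of retromer, the complex that returns cargo from endosomes. Pink1 is a kinase that gathers on damaged mitochondria and starts their removal, and Park7 (DJ-1) is a redox-sensitive protein of the cytosol and mitochondria.

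Estimated read counts totalled 28327434 in replicate 1 and 30234441 in replicate 2, of which the 6 genes took 21391 and 21808. Levels are given in TPM, the share of all transcripts after correction for length, scaled to a fixed total, as mean ± SD over both animals. Summed TPM of markers of cortical excitatory neurons was 571 in replicate 1 and 618 in replicate 2, and that of inhibitory neuron markers was 394 and 397. Markers of striatal projection neurons were also present, at a summed 901 and 964 TPM. Of 8 dopamine neuron markers, 2 reached 1 TPM in each library (Aldh1a1 and Ddc). Th, the rate-limiting enzyme of dopamine synthesis, had 0.940 and 1.18 TPM, the dopamine transporter gene Slc6a3 had 0.020 and 0.060 TPM and En1 was listed at 0 in both. The levels below are those of cortical tissue, in which Th was low and Slc6a3 was near 0.

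The coding sequences of the 2 synucleins are shown first, because these genes are relatives that differed widely in level. The first 120 coding bases of each, from the start codon, were read from the GENCODE M21 transcripts on mm10, with capitals where both genes have the same base.
Sncb-201, minus strand, chr13:54765564-54765683: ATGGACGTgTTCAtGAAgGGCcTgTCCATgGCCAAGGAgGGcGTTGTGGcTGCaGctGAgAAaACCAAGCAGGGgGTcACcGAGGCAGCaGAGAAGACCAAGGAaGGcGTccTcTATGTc
Sncg-201, minus strand, chr14:34374461-34374580: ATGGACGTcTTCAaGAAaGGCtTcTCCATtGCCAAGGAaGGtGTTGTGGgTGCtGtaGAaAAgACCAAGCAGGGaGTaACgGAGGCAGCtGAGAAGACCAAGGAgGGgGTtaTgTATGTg
In this stretch 96 of 120 bases were identical. Over the remainder of the aligned coding sequences 160 of 247 bases, or 64.8%, were identical, a lower share than in the first 120, which encode the membrane-binding end of the protein. The whole coding sequences are 402 bases in Sncb and 372 in Sncg, both with the stop codon. No stretch of 31 bases was common to the main transcripts of the 2 genes, and no other gene matched either of them at 90% identity over 100 bases or more.

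Sncb lies on chr13:54758860-54766595 (mm10, minus strand) and its main transcript has 6 exons. It had 322 TPM in replicate 1 against 369 TPM in replicate 2, from 6145 and 7358 counts. The mean of 345 ± 33.9 TPM (SD, n = 2) was the highest of the 6 genes and ranked 138 among 12958 detected nuclear protein-coding genes. Its 2 nearest protein-coding genes by level in both libraries were Gabbr1, a GABA-B receptor subunit, at 324 and 354 TPM, and Map1a, a microtubule-binding protein of dendrites, at 322 and 354 TPM. Likeness here is the distance between log2(TPM + 1) values over the 2 libraries, and so says only that the genes had like levels.

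Sncg lies on chr14:34370274-34374789 (mm10, minus strand), with 5 exons and 1 annotated transcript. Its level was 3.30 TPM in replicate 1 and 2.54 TPM in replicate 2, a mean of 2.92 ± 0.537 TPM (SD, n = 2), above only 10.2% of detected protein-coding genes. Only 45 and 36 counts lay behind these values, with exact 95% Poisson intervals of 32.8 to 60.2 and 25.2 to 49.8 counts, which cover counting error alone. The intervals overlap, so a difference between the animals in Sncg was not detectable at this depth. Npm3, a nucleoplasmin, and Slc7a3, an amino acid transporter, had the nearest levels.

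The ratio of Sncb to Sncg was 97.4 in replicate 1 and 145 in replicate 2. Markers of Cck and Vip interneurons, the class in which the Sncg subclass is placed, were all detected, 7 of 7, at a summed 380 TPM in replicate 1 and 353 TPM in replicate 2. Most of that sum came from Cck itself, the cholecystokinin precursor, at 275 and 249 TPM, and from Cnr1 at 64.3 and 61.2 TPM. The remaining markers were lower, from a mean of 21.7 TPM for Vip down to 1.985 TPM for Slc17a8. Markers of sensory and peripheral neurons had a summed 4.36 and 3.55 TPM, with 2 of 5 at 1 TPM or more in both libraries. Which cells held the Sncg transcripts was not tested.

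Pink1 (chr4:138313409-138326307, mm10, minus strand, 8 exons) was the second most abundant member. It had 172 TPM in replicate 1 against 175 TPM in replicate 2, a mean of 174 ± 1.62 TPM (SD, n = 2), from 6484 and 6866 counts. The animals were closer in Pink1 than in most genes of like count, of which 68.3% differed by at least as much. Rpl24, a ribosomal protein gene, and Chchd10, a mitochondrial intermembrane-space protein gene, had the nearest levels. The locus also holds the miRNA genes Gm27646 and Mir7019 on the same strand, both listed at 0 counts.

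Park7 (chr4:150897133-150914437, mm10, minus strand, 7 exons) followed at 94.7 TPM in replicate 1 and 95.6 TPM in replicate 2. Its mean was 95.1 ± 0.608 TPM (SD, n = 2), above 91.8% of detected protein-coding genes, and its counts were 1359 and 1407. Gabrb2, a GABA-A receptor subunit, and Ank, a pyrophosphate transporter, were nearest in level.

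Vps35 (chr8:85260392-85299802, mm10, minus strand) had 65.3 TPM in replicate 1 against 60.7 TPM in replicate 2, a mean of 63.0 ± 3.21 TPM (SD, n = 2). Its counts were 3905 and 3807. The 3′-overlapping gene Orc6, a subunit of the origin recognition complex on the opposite strand, shares 171 exonic bases with it and had 239 and 301 counts. The use of strand in counting was not given in the sources used here, and reads in those bases could belong to either gene. Cisd1, a mitochondrial outer-membrane protein gene, and Dcun1d4, a neddylation factor gene, had the nearest levels.

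Lrrk2 (chr15:91673175-91816120, mm10, plus strand) is the longest of the genes, with 51 exons and 7584 coding bases in its main transcript. It had 37.9 TPM in replicate 1 against 27.1 TPM in replicate 2, from 3453 and 2334 counts. The mean was 32.5 ± 7.64 TPM (SD, n = 2), above 71.2% of detected protein-coding genes, whose median was 16.5 TPM. Lztfl1, a ciliary traffic gene, and Zfp236, a zinc finger gene, had the nearest levels in the 2 libraries.

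All 6 genes passed 1 TPM in both libraries. Their order, Sncb, Pink1, Park7, Vps35, Lrrk2 and Sncg, was the same in each library and in both deposited quantifications, and no 2 neighbours in it overlapped. The smallest step was from Park7 to Vps35, a ratio of 1.51 between the means, and the largest was from Lrrk2 to Sncg, a ratio of 11.1. The second table set the steps differently, at 3.24 from Sncb to Pink1 against 1.99 in the first, and at 1.43 from Pink1 to Park7 against 1.82.

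**Figure D1:**
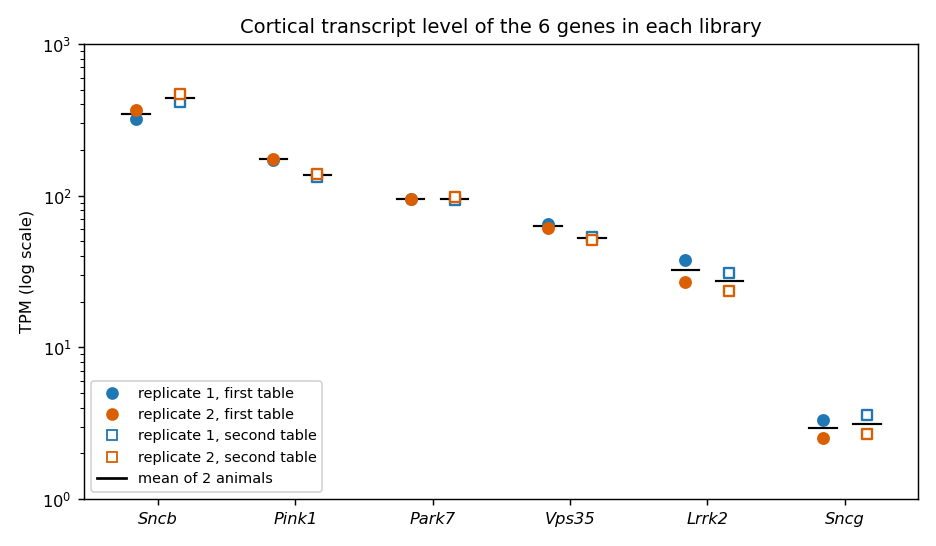
TPM of each gene on a log axis, in replicate 1 (blue) and replicate 2 (orange), in the first table (circles) and the second (squares), with black lines at the mean of both animals. Sncb, at 322 and 369 TPM in the first table, sits highest and Sncg, at 3.30 and 2.54 TPM, lowest, and the gap between the animals is widest for Lrrk2 and Sncg.

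Between the animals, Lrrk2 was the member that stood apart. Differences were computed as log2 of counts per library size, replicate 2 minus replicate 1, after scaling with TMM factors, which set the bulk of genes equal between libraries. The log2 difference of Lrrk2 was −0.70, with a counting SE of 0.039, so that replicate 2 was 1.63-fold lower. Of 3163 genes with mean counts within 2-fold of its own, 1.17% differed by at least as much, and their median absolute difference was 0.11. The deposited credibility bounds of its TPM, 32.5 to 41.5 in replicate 1 and 22.5 to 30.3 in replicate 2, did not overlap.

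The other members averaging 50 or more counts differed less. Sncb had a log2 difference of 0.12 (counting SE 0.025), and its credibility bounds, 297 to 322 TPM and 343 to 369 TPM, did not overlap either. The log2 difference was −0.17 for Vps35 (counting SE 0.033), −0.09 for Park7 (counting SE 0.055) and −0.05 for Pink1 (counting SE 0.025). Beside each of these 4, at least 26.5% of genes of like count differed as much. Sncg, at −0.45 with a counting SE of 0.32, had an interval from −1.08 to 0.18 that included 0.

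Past 1.2-fold there was 1 of the 5 members with enough counts, Lrrk2, against 27.4% of 14127 genes past that fold in either direction. The share of genes past it in the direction of Lrrk2, lower in replicate 2, was 13.1%, and 14.3% were higher. Credibility bounds lay apart in 2 of 5 members, Sncb and Lrrk2, against 19.8% of genes. These counts of members are too small to set apart from those shares. No member passed 2-fold, which 1.26% of genes did.

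Scaling to the ERCC spike-ins, synthetic transcripts added to each library, moved the median log2 difference of all genes from −0.02 to 0.25. With it Lrrk2 was still lower in replicate 2, at −0.43, and Sncg at −0.18. Park7, Pink1 and Vps35 changed sign to 0.19, 0.22 and 0.10, and Sncb reached 0.40, so the direction of those 3 small differences depends on the scaling. The scaling adds the same shift to every gene.

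**Figure D2:**
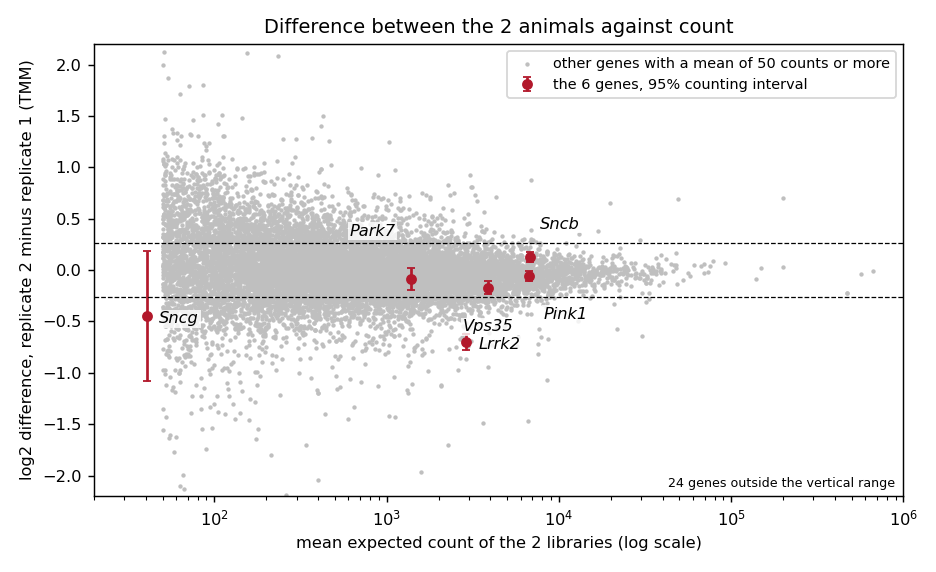
Log2 difference, replicate 2 minus replicate 1 with TMM scaling, against the mean expected count on a log axis, for all genes with 50 or more counts on average (grey) and the 6 genes (red, with 95% counting intervals). Dashed lines mark 1.2-fold: Lrrk2 at −0.70 lies below them, Sncg has a wide interval, and the other 4 lie between them, where spike-in scaling would place Park7, Pink1 and Vps35 above 0.

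Cell type markers were read beside the Lrrk2 difference, since in bulk tissue fewer cells of a type and less RNA per cell cannot be told apart. Striatal projection neuron markers, from cells known for high Lrrk2, summed to a slightly higher level in replicate 2, 964 against 901 TPM, with 1 of 9 past 1.2-fold higher (Rgs9) and 1 lower (Tac1, −0.29). Microglia and macrophage markers summed to 91.4 and 90.9 TPM, with 2 of 6 past 1.2-fold lower, Tmem119 at −0.42 and Mrc1 at −0.39. Excitatory neuron markers had 1 of 5 past 1.2-fold each way, Emx1 at 0.58 and Neurod6 at −0.55. Astrocyte markers summed to 298 and 290.0 TPM, and 0 of 4 were past 1.2-fold, while oligodendrocyte markers summed to 1390 and 1531 TPM with 1 of 4 past it, Mag, higher at 0.55. Inhibitory neuron markers had 0 of 4 past it, and endothelial and mural markers had 1 of 5 lower, Cldn5 at −0.26. Over all genes 14.3% were higher and 13.1% lower, and these marker lists are too short to set apart from those shares.

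Choroid plexus markers moved in the same direction as Lrrk2. Their summed level was 180 TPM in replicate 1 and 60.3 TPM in replicate 2, nearly all from the transthyretin gene Ttr at 172 and 55.7 TPM. All 3 markers with enough counts were past 1.2-fold lower, where 13.1% of all genes were, and this list too is short. With spike-in scaling Ttr and Kl stayed past it, at −1.43 and −0.38, and Clic6 did not, at −0.06. Folr1 and Aqp1, with too few counts, were at −3.29 (counting SE 0.87) and −0.18 (counting SE 0.36) with TMM. The part of choroid plexus in the Lrrk2 difference was not tested. Adipose markers, another tissue known for Sncg, summed to 0.540 and 0.180 TPM, with Lep listed at 0 in both.

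The annotated transcripts of a member share most of their sequence, so the split of its reads among them is a model estimate, given here from both deposited quantifications. A pair of short non-coding transcripts carried large shares, and the bases that set them apart from the main transcript are shown. For Sncb-204, a 469-base transcript annotated as a retained intron, the lower case marks 107 bases of intron 2 (chr13:54762961-54763067, minus strand) and capitals mark exon 3 of Sncb-201, which follows directly. For Lrrk2-205, a 438-base processed transcript, the lower case marks its own 33-base first exon (chr15:91772345-91772377, plus strand) and capitals the first 30 bases of exon 37 of Lrrk2-201.
Sncb-204: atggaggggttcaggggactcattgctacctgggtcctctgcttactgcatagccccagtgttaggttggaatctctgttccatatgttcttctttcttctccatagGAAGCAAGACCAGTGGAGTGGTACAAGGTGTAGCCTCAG
Lrrk2-205: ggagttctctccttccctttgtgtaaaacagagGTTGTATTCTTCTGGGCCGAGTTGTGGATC
The intronic bases of Sncb-204 end in AG with 17 pyrimidines among their last 20 bases, the form of an intron's 3′ end. The other 77.2% of Sncb-204 and 92.5% of Lrrk2-205 are also bases of the main transcript. The same 107 bases belong to unspliced Sncb precursor RNA, which the tables do not separate from Sncb-204. The 33 bases of Lrrk2-205 lie in the intron before exon 37 of Lrrk2-201, and so belong to unspliced Lrrk2 precursor RNA too.

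Sncb-201, the full coding transcript, held 76.9% of the gene's TPM in each replicate of the first table, and Sncb-204 held 21.2% and 20.1%. In the second table the order was reversed, with Sncb-201 at 45.3% and 47.2% and Sncb-204 at 53.5% and 51.2%. The counts behind Sncb-204 were 457 and 517 in the first table and 1193 and 1312 in the second, while those of the whole gene differed little between tables (6145 and 7358 against 6290 and 7451). The level of coding Sncb transcripts was accordingly 269 ± 28.4 TPM (SD, n = 2) in the first table and 206 ± 22.2 TPM in the second. Both tables placed replicate 2 higher.

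Lrrk2-201, the only protein-coding Lrrk2 transcript, held 56.5% of the gene's TPM in replicate 1 and 50.8% in replicate 2. The second table gave it 58.4% and 49.9%. Lrrk2-205, of 438 bases, took 31.4% and 39.6% of TPM in the first table and 36.7% and 41.7% in the second, from no more than 72.9 counts in any library. Since TPM divides by length, the coding transcript had 91.8% and 90.8% of the gene's counts while holding little over 50% of its TPM. The level of the transcript that encodes the kinase was therefore well below the gene-level TPM, at 17.6 ± 5.38 TPM (SD, n = 2) in the first table and 14.9 ± 4.55 TPM in the second.

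Lrrk2-201 held a mean of 91.3% of the gene's counts, so a difference in the gene's counts falls mainly on it whatever the other transcripts do. Whether the transcripts differed unequally between the animals was not tested. Lrrk2-201 had 3170 counts in replicate 1 and 2120 in replicate 2, a log2 difference of −0.72 with a counting SE of 0.040, and its credibility bounds did not overlap. Lrrk2-205 had 72.9 and 68.4 counts, a log2 difference of −0.23 with a counting SE of 0.24. Lrrk2-202, of 2203 bases, had 8.56% and 3.39% of TPM in the first table and was listed at 0 in the second. Its log2 difference in the first table was −1.89 with a counting SE of 0.27. Lrrk2-204, of 3452 bases, reached 6.51% in replicate 2 of the second table. It went the other way in the first table, with a log2 difference of 0.81 and a counting SE of 0.30.

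Park7 showed the widest disagreement between tables. Park7-201 held 62.7% and 59.2% of the gene's TPM in the first table but 27.2% and 18.2% in the second. Park7-204 held 34.4% and 34.9% in the first table and 69.0% and 71.8% in the second. The 2 transcripts share 6 exons and have the same 570 coding bases. They differ only in their first, untranslated exon, of 144 bases in Park7-201 and 118 bases in Park7-204, whose starts lie 4511 bases apart. The tables thus disagreed on which of the 2 Park7 start sites led, while the level of coding transcripts was alike in both, at 92.7 ± 1.09 TPM (SD, n = 2) in the first table and 92.3 ± 0.937 TPM in the second.

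Pink1-201, the full-length transcript of 1743 coding bases, held 77.7% and 79.0% of TPM in the first table and 89.1% and 88.5% in the second. Pink1-202 held the remainder, 21.7 ± 0.891% in the first table and 11.2 ± 0.420% in the second (SD, n = 2). This shorter transcript starts with 295 bases that are intron in Pink1-201, joins it at exon 6, and has an annotated reading frame of 507 bases that lies within that of Pink1-201. It therefore lacks the first 5 exons, which encode the mitochondrial targeting sequence and a large part of the kinase domain. Its frame keeps 507 of the 1743 coding bases of Pink1-201. Its 295 intronic bases are also part of unspliced Pink1 RNA.

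**Figure D3:**
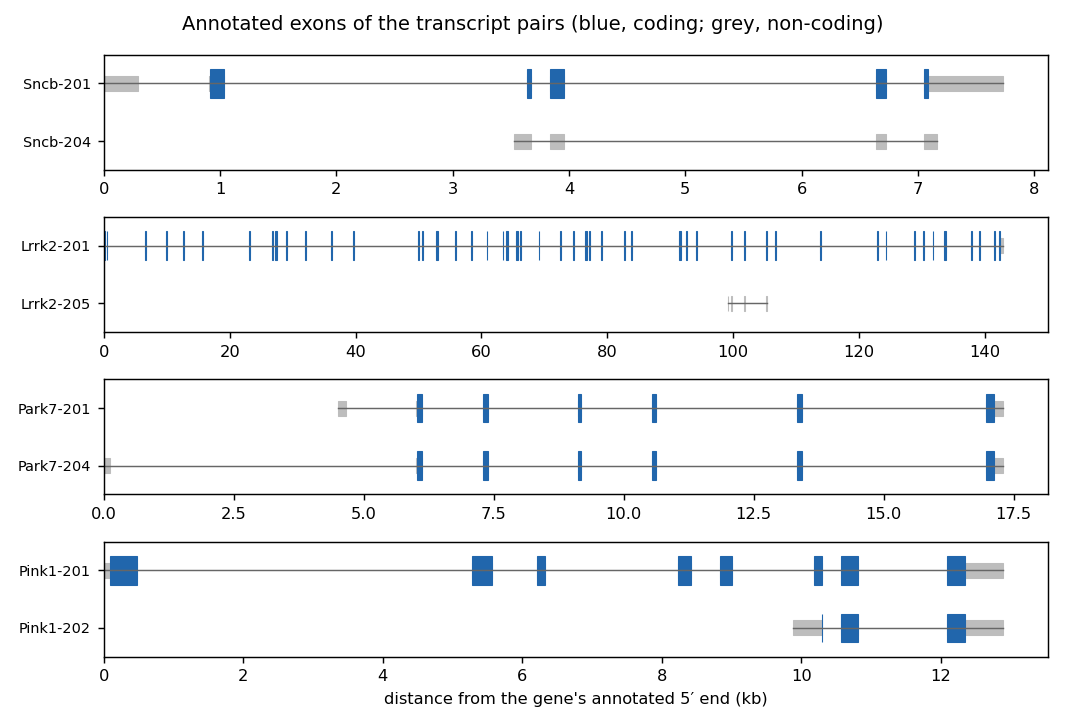
Exons of the transcript pairs by distance from each gene's annotated 5′ end in kb, with coding parts in blue and non-coding parts in grey. Sncb-204 and Pink1-202 begin within introns of the main transcript, Lrrk2-205 has 4 exons inside the gene, and the Park7 pair differs in the first exon alone.

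**Figure D4:**
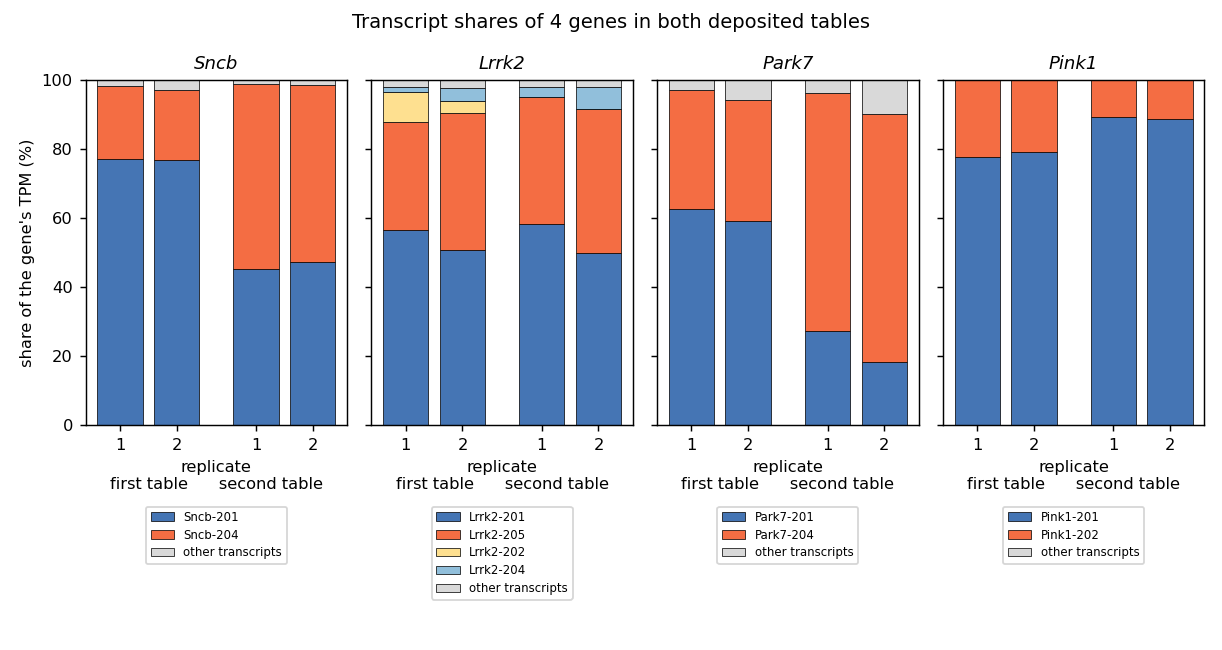
Share of each gene's TPM, in percent, held by its transcripts in replicates 1 and 2 of the first and second tables, with transcripts under 5% throughout pooled in grey. Sncb and Park7 change their leading transcript between tables, from 76.9% for Sncb-201 and 62.7% for Park7-201 in replicate 1 to 45.3% and 27.2%, while Lrrk2 and Pink1 keep theirs.

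Partners of each member were then read from 6 lists of 114 different genes. For the synucleins the list held 15 presynaptic proteins, all detected, with a median of 355 TPM. Snap25 and Vamp2, the membrane-fusion proteins of synaptic vesicles, had 1312 ± 77.2 and 469 ± 28.6 TPM (SD, n = 2), and the vesicle protein Syp had 969.9 ± 8.58 TPM. None of the 15 was past 1.2-fold higher and 1 was lower, Hspa8, a chaperone that also disassembles clathrin coats, at 1032 TPM in replicate 1 and 718 TPM in replicate 2 and a log2 difference of −0.64. Over all genes 14.3% were higher and 13.1% lower. Spike-in sums gave 10 higher and 1 lower, where 48.1% and 3.03% of all genes were higher and lower. The median log2 difference with TMM was 0.01, against −0.02 over all genes. Syn3, a synapsin, at 0.19, and Uchl1, a neuronal ubiquitin hydrolase, at −0.17, were next.

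The Lrrk2 list held its paralog, the Rab GTPases it phosphorylates and proteins that act on them, and 17 of 18 genes were detected. The 14-3-3 genes Ywhag and Ywhaq, whose proteins bind phosphorylated Lrrk2, were at 519 ± 5.12 and 179 ± 6.85 TPM (SD, n = 2), and the substrates Rab3a and Rab10 at 371 ± 15.1 and 64.6 ± 0.863 TPM. Past 1.2-fold, 0 of 17 genes were higher and 5 were lower in replicate 2, where 14.3% of all genes were higher, 13.1% lower and 27.4% past it in either direction. The total of 5 of 17 is near that last share. Spike-in sums gave 4 higher and 1 lower, where 48.1% and 3.03% of all genes were higher and lower. Rilpl1 and Rilpl2, whose proteins bind Rabs phosphorylated by Lrrk2, had log2 differences of −0.64 and −0.46, and Rab8b, a substrate, had −0.43. Rab29, a Rab that recruits Lrrk2, and Ppm1h, a phosphatase that reverses its action, were at −0.32 (counting SE 0.28) and −0.29. The most abundant members of the list were within 1.2-fold, and the list's median was −0.07. Rilpl1 had 35.6 TPM in replicate 1 against 24.4 TPM in replicate 2, near the values of Lrrk2. With spike-in scaling all 5 were below 0, and Rilpl1, at −0.36, was the 1 past 1.2-fold. Ppm1j, a related phosphatase, was under 1 TPM in both libraries.

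Of the Vps35 list, which holds the other retromer subunits, sorting nexins, the actin-regulating WASH complex and retromer cargo, 18 of 18 genes were detected, at a median of 35.6 TPM. The sorting receptors Sort1 and Sorl1, both carried by retromer, had 140.0 ± 2.48 and 89.7 ± 10.4 TPM (SD, n = 2). Vps29, a core subunit bound to Vps35, had 97.1 and 94.8 TPM in the 2 libraries. Past 1.2-fold, 1 gene was higher, the WASH subunit Washc3 at 0.30, and 3 were lower: Snx27 and Washc4, both at −0.35, and Snx3 at −0.31. Over all genes 14.3% were higher and 13.1% lower. Snx27 and Snx3 are cargo adaptors of retromer. The list's median log2 difference of −0.06 lay near the −0.02 of all genes. With spike-in scaling 0 of the 18 were past 1.2-fold lower and 4 were higher, where 3.03% and 48.1% of all genes were.

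All 25 genes of the Pink1 list, which covers mitochondrial import, Pink1 cleavage and mitophagy, were detected at a median of 32.2 TPM. Sqstm1, an autophagy receptor, led at 239 ± 4.92 TPM (SD, n = 2), followed by the mitophagy receptor Bnip3l at 113 ± 14.5 TPM. Mfn2, a mitochondrial fusion GTPase, had 102 ± 7.89 TPM and the import receptor Tomm20 had 100.2 ± 0.0849 TPM. In replicate 2, 3 genes were past 1.2-fold higher: the protease Htra2 at 0.37, the import channel Timm23 at 0.37 and Parl, the protease that cleaves Pink1, at 0.35. Another 3 were lower: Rhot2 at −0.54 and Rhot1 at −0.27, which tie mitochondria to motors, and Pmpcb, a subunit of the peptidase that removes import signals, at −0.32. Timm23 was at 0.11 in the second table, within 1.2-fold. The counts of 3 and 3 of 25 are near the shares of all genes, 14.3% and 13.1%. DESeq2 size factors and total counts each gave 3 higher and 2 lower. Spike-in sums gave 9 higher and 0 lower, where 48.1% and 3.03% of all genes were higher and lower.

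The Park7 list of antioxidant and glyoxalase genes was detected in 18 of 18, at a median of 59.5 TPM. Gpx4, Sod1, Prdx6 and Prdx2, enzymes that remove peroxides or superoxide, ranged from 236 down to 178 TPM. Nqo1, a quinone reductase, was the only gene of the 18 past 1.2-fold, at 0.58 with a counting SE of 0.23, at 2.31 TPM in the first animal and 3.69 in the second. Over all genes 27.4% were past it in either direction. Gpx1 at −0.25 and Keap1, the repressor of the antioxidant response, at 0.24 were the next farthest. Spike-in sums gave 7 higher and 0 lower, where 48.1% and 3.03% of all genes were higher and lower.

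Other genes linked to inherited or common Parkinson disease were detected in 24 of 26, at a median of 33.1 TPM. The highest were Uchl1 at 423 ± 17.2 TPM, the lysosomal protease Ctsb at 258 ± 4.54 TPM, Chchd2, a mitochondrial intermembrane-space protein, at 211 ± 19.5 TPM, and Synj1, a phosphatase of synaptic vesicle recycling, at 163 ± 10.8 TPM (SD, n = 2). Gch1, the first enzyme in making the cofactor for dopamine synthesis, was under 1 TPM in both libraries, at 0.480 and 0.300 TPM. Past 1.2-fold were 2 genes higher, Htra2 and the microglial glycoprotein gene Gpnmb at 0.29, and 1 lower, Chchd2 at −0.27, of 25 with enough counts. The shares of all genes were 14.3% higher and 13.1% lower. Gpnmb had a counting SE of 0.26. Chchd2 was within 1.2-fold with DESeq2 size factors, total counts and spike-in sums, which left 0 genes of the list lower. Spike-in sums gave 10 higher, where 48.1% of all genes were higher.

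**Figure D5:**
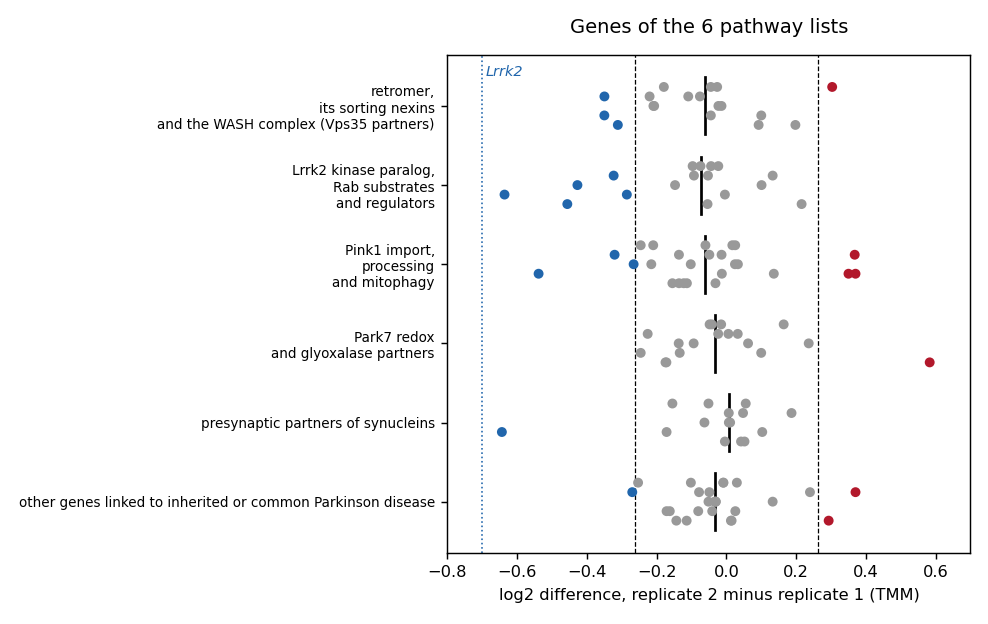
Log2 difference, replicate 2 minus replicate 1 with TMM scaling, of each gene averaging 50 or more counts in the 6 lists; black bars are list medians and dashed lines mark 1.2-fold, with genes past it in red (higher) or blue (lower). The 5 blue points of the Lrrk2 list run from −0.64 to −0.29 (−0.36 to −0.01 with spike-in scaling), and the dotted line marks Lrrk2 at −0.70. These are 5 of 17 genes with 0 higher, where 13.1% of all genes were lower and 27.4% were past 1.2-fold either way. Most genes of all lists lie between the dashed lines.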

How the data were processed

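Total RNA of the left cerebral cortex of 2 mice was sequenced, 1 library per animal, from 300 ng of ribosome-reduced RNA with spike-ins and a directional kit, per the labels. Reads were assigned on genome build mm10 with GENCODE M21, per the deposited readme text; no tool or version was given in the sources used here. The first table (genes and transcripts) and the second (transcripts) hold the authors' estimated counts, also called expected counts, in which shared reads are divided among features. Deposited TPM values are scaled by length and to a fixed total over all features. The percent of a gene's TPM per transcript is given per the file headers for the first table and was computed from TPM for the second. Credibility bounds and posterior SDs are deposited scores of the authors' model whose level is not stated, and a deposited TPM can lie outside them, as Pink1 at 172 TPM with bounds of 162 to 171 in replicate 1. Reads of CAST/EiJ origin may be assigned less often to this reference.

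Expected counts were rounded and scaled with TMM in edgeR 4.0.16 (R 4.3.3), and log2 counts per library size (CPM) were taken with a prior count of 1. Background shares use 14127 genes averaging 50 or more counts, over which edgeR's common dispersion gave a coefficient of variation of 12.8%. One group of 2 animals has no contrast, so no test was run and no p-value is given. The computation of log2 differences was tested on simulated counts with known folds. Counting SEs and intervals cover counting error only. Alternatives were DESeq2 1.42.0 size factors, total counts, spike-in sums, the second table, a prior count of 5, no count minimum, 2-fold in place of 1.2-fold, TPM rescaled to nuclear protein-coding genes, and each library alone. Sequences were read from GENCODE M21 transcripts, synuclein coding sequences aligned with Biopython 1.88, and like sequences sought with BLAST 2.17.0.

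The members and the lists of partners and markers were chosen with earlier results of these data known. Named genes are the members, the 2 genes nearest each in log2(TPM + 1), and from each list up to 4 with the highest TPM, up to 3 with the largest difference and those under 1 TPM in both libraries, with transcripts of at least 5% of their gene. Rab29, Ppm1h, Washc3, Parl, Rhot1 and Pmpcb are named beyond that rule, chosen after their values were seen, to complete counts past 1.2-fold, as are the markers beside the Lrrk2 difference. Transcript shares are described for 5 of the 6 members.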

Additional observations from a re-analysis of the deposited data

How the results depend on the processing

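No paired analysis was possible because both libraries belong to 1 group. Of 78 recomputed values of the members, 58 kept their direction and stayed within their spread. The values of each library alone are among these 58 and lie within the SD of 2 animals by construction. The tally is therefore no measure of robustness. Each library alone gave the levels and shares printed per replicate. The second table moved the level of Sncb to 441 TPM, of Pink1 to 136 TPM and of Vps35 to 52.2 TPM, and the share of Sncb-201 to 46.2%, of Park7-201 to 22.7% and of Pink1-201 to 88.8%. TPM rescaled to nuclear protein-coding genes raised each level by construction, to 715, 359.7, 197, 131, 67.4 and 6.06 TPM in the order Sncb, Pink1, Park7, Vps35, Lrrk2 and Sncg. Spike-in sums shifted all log2 differences upward by construction, to 0.40 for Sncb and −0.43 for Lrrk2, and reversed Park7 (0.19), Pink1 (0.22) and Vps35 (0.10). Members past 1.2-fold then numbered 2, as they did with no count minimum, which admits Sncg, and 0 were past 2-fold. Over all lists, genes past 1.2-fold went from 6 higher and 13 lower, of 112 with enough counts, to 41 higher and 2 lower with spike-in sums. The shares of all genes went from 14.3% higher and 13.1% lower to 48.1% and 3.03%. The remaining settings left these list totals within 1.5 times. Depth limits Sncg, at 45 and 36 counts, and transcript shares, whose cause of disagreement between tables was not tested.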
